A study of Komagataella pastoris with 6 samples.

Results

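The 5 genes described here encode enzymes of the pentose phosphate pathway of the yeast *Pichia pastoris*. They were taken by identifier out of the 5040 rows of the count table. ZWF1 (PAS_chr2-1_0308), SOL3 (PAS_chr3_1126) and GND1 (PAS_chr3_0277) form the oxidative branch, and TKL1 (PAS_chr1-4_0150) and TAL1-1 (PAS_chr2-2_0338) belong to the non-oxidative branch. The gene names come from the list that defined the set. Neither the count table nor the supplementary gene table pairs these 5 identifiers with names.

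The series compared a flocculating strain with a non-flocculating one, 3 cultures of each. KM71-LpDLDH is the laboratory strain KM71 expressing LpDLDH, the d-lactate dehydrogenase gene of *Leuconostoc pseudomesenteroides*. KM71-ScFlo1-LpDLDH carries, in addition, ScFLO1, a flocculin gene of *S. cerevisiae*. Both genes were driven by the constitutive promoter of the glyceraldehyde-3-phosphate dehydrogenase gene. LpDLDH, which both strains carry, was on a hygromycin plasmid and ScFLO1 on a HIS4 plasmid, so the plasmid, its marker and ScFLO1 cannot be told apart. Both strains were grown in MGYH, a minimal medium with glycerol and histidine, from an OD600 of 0.05 at 30 °C and 250 rpm for about 21 h. Whether each strain rests on a single transformant is not given in the sources used here, and the introduced genes were not analysed here.

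The pentose phosphate pathway branches from glycolysis at glucose 6-phosphate. Its oxidative branch yields NADPH, the reducing agent of biosynthesis and of glutathione-based defence against oxidants, while releasing CO2 and leaving ribulose 5-phosphate. The non-oxidative branch interconverts sugar phosphates reversibly, supplying ribose 5-phosphate for nucleotides and erythrose 4-phosphate for aromatic amino acids, and returning carbon to glycolysis. On glycerol, glucose 6-phosphate has to be made by gluconeogenesis before it can enter the oxidative branch.

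Library totals lay between 10386352 and 12767753 reads, and the 5 genes together took from 0.470% to 0.527% of them. Levels are given as TMM-scaled CPM, that is, reads of a gene relative to the library total after edgeR's scaling between libraries. Fold changes are on the log2 scale, with a negative value lower in the flocculating strain, and their adjusted p-values come from edgeR's quasi-likelihood test across 5029 genes (Benjamini-Hochberg). Their errors are standard errors (SE) over the 3 cultures of each strain. The median log2 fold change of all tested genes was 0.02. Replicates 1 and 3 of KM71-ScFlo1-LpDLDH differed more than any other pair of replicates (chi-square per degree of freedom of 68.1, against 12.0 to 31.0 in the other 5 pairs).

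The first 2 enzymes of the oxidative branch were lower in the flocculating strain, by 1.67-fold for ZWF1 and 1.91-fold for SOL3. GND1, the last enzyme of the branch, had the same mean in both strains. TKL1 and TAL1-1 had values that overlapped between the strains. Of the 5 genes, 2 had an adjusted p under 0.05, both lower, where 31.5% of all tested genes were lower and 32.6% higher at that threshold. None also changed by more than 2-fold, the study's second criterion, whereas 16.4% of all tested genes met both. That share is 825 genes in the fit made here. The paper reports far fewer differing genes at its stated cut-offs. With a fold change above 4 in place of 2, 166 genes passed here, 77 of them higher, which is close to the paper's total. The reason for the gap was not tested.

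**Figure D1:**
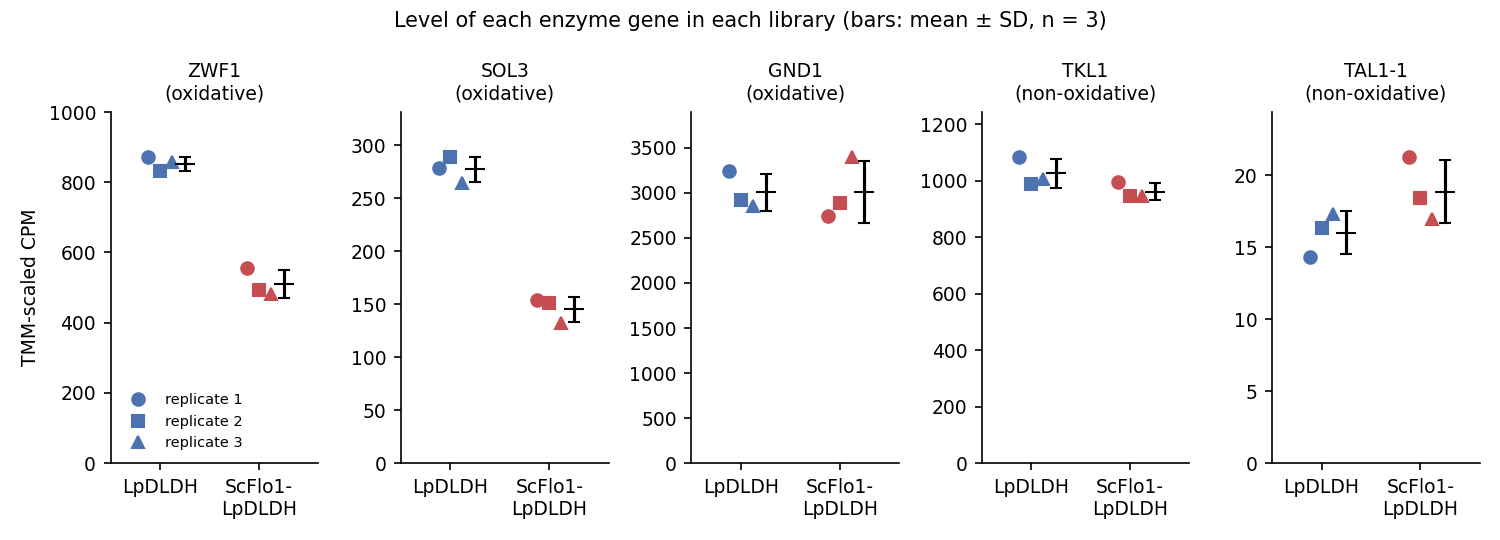
TMM-scaled CPM (vertical axes, each from 0) of the 5 genes in the 3 libraries of KM71-LpDLDH (blue) and the 3 of KM71-ScFlo1-LpDLDH (red), with the mean and SD of each strain in black. ZWF1 and SOL3 are lower in every red library, while the libraries of the strains overlap for GND1, TKL1 and TAL1-1.

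ZWF1 encodes glucose-6-phosphate dehydrogenase, which commits glucose 6-phosphate to the pathway and makes the first NADPH. Replicates 1, 2 and 3 of the control strain, KM71-LpDLDH, had 871, 831 and 857 CPM, and those of the flocculating strain, KM71-ScFlo1-LpDLDH, had 555, 494 and 481 CPM. The strains did not overlap, with the highest flocculating library well under the lowest of the control. The means were 853 ± 20.3 CPM and 510 ± 39.6 CPM (SD, n = 3). On the log2 scale the fold change was -0.74 (SE 0.07, edgeR adjusted p = 5.83e-05). RNA came from whole pellets, so a lower level in every cell and a loss in some of the cells cannot be told apart.

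SOL3 encodes 6-phosphogluconolactonase, which hydrolyses the lactone that ZWF1 makes. In the same order, its levels were 279, 289 and 265 CPM in the control and 154, 151 and 132 CPM in the flocculating strain. Here too every flocculating library lay below every control library. The means were 277.3 ± 12.0 CPM and 146 ± 11.8 CPM (SD, n = 3). On the log2 scale the fold change was -0.93 (SE 0.08, edgeR adjusted p = 7.74e-06). A larger absolute change was found in 18.7% of all tested genes for SOL3 and in 26.3% for ZWF1.

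GND1 encodes 6-phosphogluconate dehydrogenase, which makes the second NADPH of the branch and releases CO2. The control replicates had 3242, 2923 and 2856 CPM, and the flocculating ones 2741, 2887 and 3394 CPM. The lowest and the highest of the 6 values both came from the flocculating strain, in replicates 1 and 3. The means were 3007 ± 207 CPM and 3007 ± 343 CPM (SD, n = 3). On the log2 scale the fold change was 0.00013 (SE 0.11, edgeR adjusted p = 0.999). A 95% interval from limma ran from -0.28 to 0.28, that is, from 0.821-fold to 1.21-fold.

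TKL1 encodes transketolase, which carries ketol units between sugar phosphates. Levels of 1082, 989 and 1005 CPM were found in the control and of 996, 944 and 944 CPM in the flocculating strain. Replicate 1 of the flocculating strain exceeded replicate 2 of the control, so the groups overlapped narrowly. Its fold change was -0.09 (log2, SE 0.05, edgeR adjusted p = 0.384), with a limma 95% interval from -0.29 to 0.10. With total-count scaling, which shifted the median of all genes to 0.13, it was 0.01.

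TAL1-1 carries the name of a transaldolase, which carries dihydroxyacetone units between sugar phosphates. It was counted with only 167, 207 and 201 reads in the control replicates and 285, 213 and 175 in the flocculating ones. These correspond to 14.3, 16.3 and 17.3 CPM against 21.2, 18.4 and 17.0 CPM. Replicate 3 of the flocculating strain lay inside the range of the control. Its fold change was 0.24 (log2, SE 0.12, edgeR adjusted p = 0.168), with a limma 95% interval from -0.08 to 0.55. It was 0.14 without replicate 1 of the flocculating strain, the highest library, and 0.35 with total-count scaling. The 797 tested genes with a mean level within a factor of 2 of it had a median log2 fold change of 0.22.

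The row numbered just before TAL1-1, PAS_chr2-2_0337, was singled out after its values were seen. It held 28669, 29729 and 28651 reads in the control libraries and 20717, 19674 and 20426 in the flocculating ones, which is 72.7 to 172 reads for each read on TAL1-1. In TMM-scaled CPM it went from 2424 ± 67.4 to 1740 ± 220 (SD, n = 3). On the log2 scale the fold change was -0.48 (SE 0.11, edgeR adjusted p = 0.00432), with no overlap between the strains. Yeasts of this group can carry more than 1 transaldolase gene. No source used here gives a name to PAS_chr2-2_0337, and which row holds most transaldolase transcripts was not settled, so the result for TAL1-1 stands for that row alone.

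**Figure D2:**
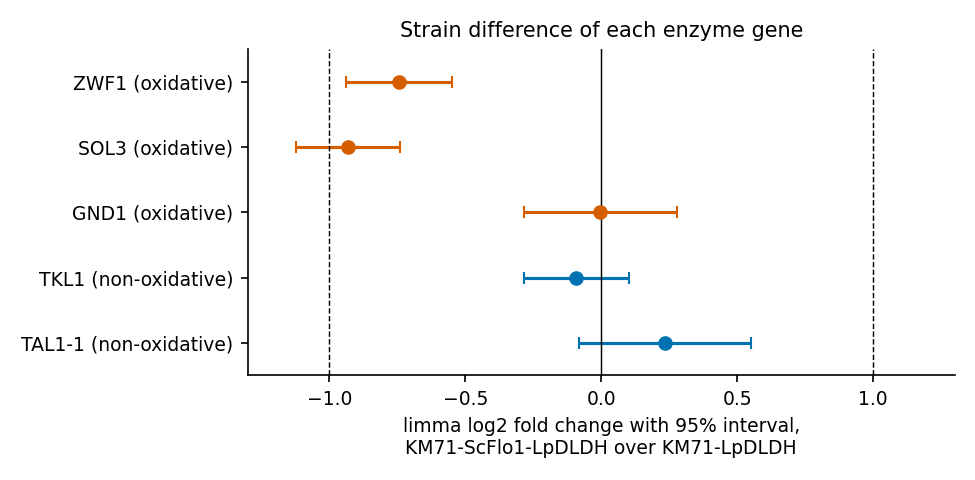
Log2 fold change of each gene (negative, lower in the flocculating strain) by limma (points) with its 95% interval (bars), oxidative branch in orange and non-oxidative in blue. Dashed lines mark a fold change of 2. The intervals of ZWF1 and SOL3 lie below 0, and those of GND1, TKL1 and TAL1-1 include 0.

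The limma 95% interval of the log2 fold change ran from -0.94 to -0.55 for ZWF1 and from -1.12 to -0.74 for SOL3. The interval of SOL3 includes -1, the fold change cut-off of the study, and that of ZWF1 does not. The libraries of the strains did not overlap for these 2 genes, both lower, against 33.6% of all tested genes lower and 35.3% higher without overlap. The share of 2 in 5 is close to the background of the lower direction and below that of both directions together. The count alone therefore does not set the pathway apart.

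**Figure D3:**
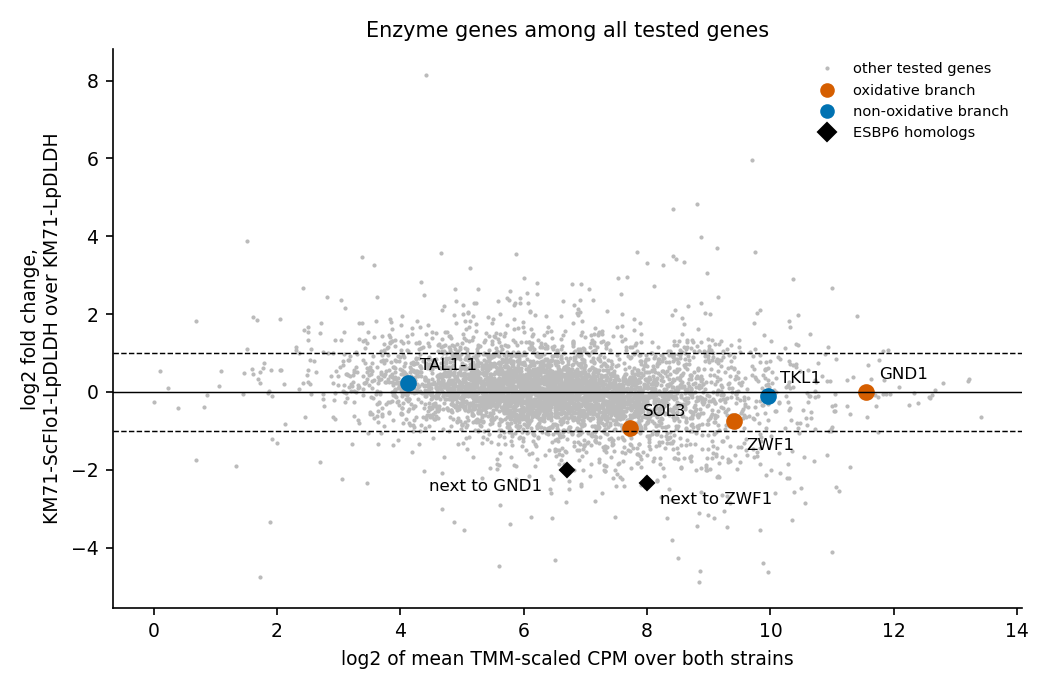
Log2 fold change (vertical axis) against the log2 of the mean TMM-scaled CPM (horizontal axis) of the 5029 tested genes in grey, with the oxidative branch in orange, the non-oxidative branch in blue and the ESBP6 homologs numbered next to ZWF1 and GND1 as black diamonds. Dashed lines mark a fold change of 2, and all 5 enzyme genes lie between them.

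The ratio of reads of 2 genes within a library does not depend on how libraries are scaled, so it was used to ask whether the enzymes moved by different amounts. For each read on GND1 there were 0.269, 0.284 and 0.300 reads on ZWF1 in the control replicates, and 0.203, 0.171 and 0.142 in the flocculating ones. The log2 ratio of ZWF1 to GND1 was lower by 0.74 (SE 0.16) in the flocculating strain, and that of SOL3 to GND1 lower by 0.93 (SE 0.17). Neither ratio overlapped between the strains.

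The same held against transketolase. Reads on ZWF1 for each read on TKL1 were 0.805, 0.841 and 0.852 in the control and 0.557, 0.524 and 0.509 in the flocculating strain, a log2 difference of -0.65 (SE 0.05). For SOL3 and TKL1 the difference was -0.84 (SE 0.08). The ratio of ZWF1 to SOL3 was 3.13, 2.88 and 3.24 in the control and 3.61, 3.28 and 3.64 in the flocculating strain. Its means differed by 0.19 on the log2 scale (SE 0.07), and the groups were only narrowly apart, at 3.24 against 3.28.

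Between GND1 and TKL1 the ratio overlapped between the strains, with a log2 difference of 0.09 (SE 0.11, exact permutation p = 0.6), and likewise between GND1 and TAL1-1, at -0.24 (SE 0.23, exact permutation p = 0.4). The latter ran from -0.40 without replicate 3 of the flocculating strain to -0.09 without its replicate 1, and was -0.11 without replicate 1 of the control. The other 8 of the 10 pairs did not overlap. Among them was TKL1 to TAL1-1, at -0.33 (SE 0.14), or -0.21 without replicate 1 of the control. All the rest of these pairs include ZWF1 or SOL3, so the count largely restates the change of those genes. The share of all gene pairs without overlap was not computed. Of single tested genes, 33.6% were lower and 35.3% higher without overlap. For each of these 8 the two-sided exact permutation test gave p = 0.1, the smallest that 3 libraries against 3 allow, and an adjusted p of 0.13 over the 10 pairs. No pair could therefore pass the threshold by this test.

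The share of the oxidative branch among the 5 genes overlapped between the strains. Reads on the 3 oxidative genes made up 80.0% (95% Wilson interval 79.7 to 80.3), 80.1% (79.8 to 80.4) and 79.6% (79.2 to 79.9) of the reads of the 5 genes in the control replicates. They made up 77.2% (76.9 to 77.6), 78.6% (78.2 to 78.9) and 80.7% (80.3 to 81.0) in the flocculating ones. These intervals cover counting error only. Replicate 3 of the flocculating strain had the highest share of all 6 libraries and replicate 1 the lowest, so the strains overlapped, at 79.9% ± 0.295 and 78.8% ± 1.73 (SD, n = 3).

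Most oxidative reads lay on GND1. This gene took 58.0% ± 0.986 of the reads of the 5 genes in KM71-LpDLDH and 64.6% ± 3.50 in KM71-ScFlo1-LpDLDH (SD, n = 3). ZWF1 took 16.5% ± 0.634 and 11.0% ± 1.38, and SOL3 5.36% ± 0.328 and 3.15% ± 0.431. Without GND1, the oxidative share differed by -12.0 percentage points (flocculating strain minus control), against -1.06 points with all 5 genes. The latter was -0.27 without replicate 1 of the flocculating strain, -1.98 without its replicate 3, and turned to 0.26 without ZWF1. A measure in which GND1 does not dominate is the oxidative minus the non-oxidative mean of log2 reads. By that measure the flocculating strain differed from the control by -0.63 on the log2 scale, with the low-count TAL1-1 weighing as much as TKL1. Its spread over libraries was not computed, nor its value with PAS_chr2-2_0337 in the non-oxidative branch. The log2 fold change of that row was -0.48, against 0.24 for TAL1-1.

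The share also depended on which row stands for transaldolase. With PAS_chr2-2_0337 counted in the non-oxidative branch, an alternative chosen after seeing the data, the oxidative share was 55.2%, 54.7% and 53.3% in the control replicates and 57.4%, 57.1% and 57.7% in the flocculating ones. It was then higher in every flocculating library, at 54.4% ± 1.00 and 57.4% ± 0.321 (SD, n = 3), a difference of 2.97 points. The direction of the branch share thus turned with the choice of row. Shares of reads depend on the length of each gene, which was not used here, so they compare libraries and not the levels of different genes.

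**Figure D4:**
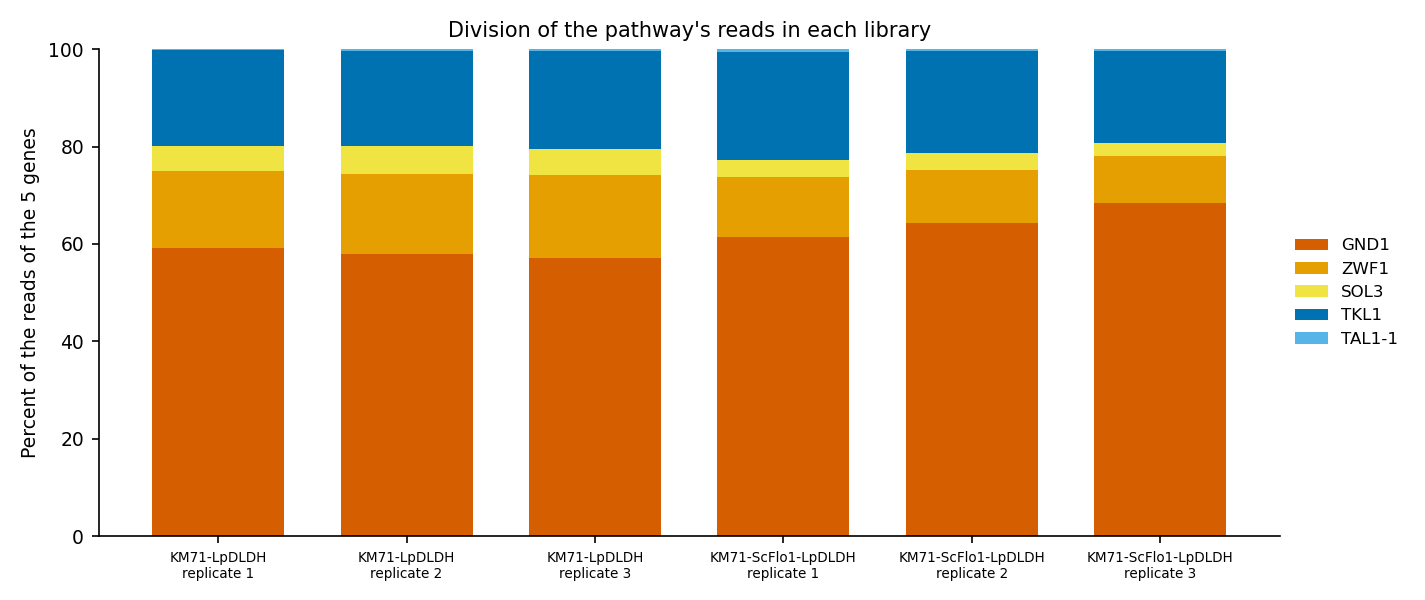
Percent of the reads of the 5 genes (vertical axis) that fell on each gene in each of the 6 libraries, oxidative branch in orange and yellow at the bottom, non-oxidative branch in blue at the top. In KM71-ScFlo1-LpDLDH the part of GND1 is larger and those of ZWF1 and SOL3 smaller, while the border between the branches stays between 77.2% and 80.7%.

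Within the flocculating strain GND1 ran opposite to ZWF1 and SOL3. In KM71-ScFlo1-LpDLDH, replicate 3 had the lowest ZWF1, SOL3 and TAL1-1 but the highest GND1. Replicate 1 had the highest ZWF1, SOL3, TKL1 and TAL1-1 but the lowest GND1. These were also the replicates that differed most from each other over all genes. In KM71-LpDLDH the opposition was absent, as ZWF1 and GND1 were both highest in replicate 1 and SOL3 and GND1 both lowest in replicate 3. How many other genes ran either way was not counted. The coefficient of variation over the 3 cultures ran from 2.38% (ZWF1) to 9.40% (TAL1-1) in KM71-LpDLDH, where the median of all tested genes was 7.69%. In KM71-ScFlo1-LpDLDH it ran from 3.11% (TKL1) to 11.6% (TAL1-1), against a median of 7.92%. For ZWF1 it was 7.77% there, and the difference between the strain means was 343 CPM against SDs of 20.3 and 39.6 CPM.

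Of the 9 rows of the table numbered 1 before or 1 after a member, 6 were lower and 2 higher at an adjusted p under 0.05 by the edgeR test, and 2 of the lower ones also passed the fold change cut-off. Among all tested genes these shares were 31.5% lower, 32.6% higher and 16.4% past both criteria in either direction. Both of the latter are listed by the study as homologs of ESBP6, a gene of *S. cerevisiae* that resembles monocarboxylate permeases. PAS_chr2-1_0309, numbered after ZWF1, had a log2 fold change of -2.33, and PAS_chr3_0278, numbered after GND1, of -2.0. In the gene table of *K. pastoris* ATCC 28485, the entry listed next to ZWF1 is MCH4, named as a permease of this kind. None of the identifiers used here matched that table, and the paper gives its yeast as reclassified to *Komagataella phaffii*. The entry therefore gives no position in these strains. The mean level of PAS_chr2-1_0309 fell by 343 CPM and that of ZWF1 also fell by 343 CPM. Beside GND1, PAS_chr3_0278 fell by 124 CPM while the mean of GND1 was the same in both strains. On the other side of ZWF1, PAS_chr2-1_0307 had a log2 fold change of -0.98 (adjusted p = 4.9e-05 by the edgeR test). Positions and strand were not analysed here, and the part of neighbouring genes in the fall of ZWF1 was not tested.

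The profile of ZWF1 over the 6 libraries was most like that of PAS_chr1-4_0599, with a Pearson r of 0.999 on log2 CPM, and that of SOL3 most like PAS_chr3_0177, also with an r of 0.999. Such likeness was common, since 748 tested genes had an r above 0.95 with ZWF1 and 775 with SOL3. For GND1, TKL1 and TAL1-1 only 7, 2 and 14 genes passed the same value. An r over the 6 libraries takes in the difference between the strains, so these counts partly restate which members differed. Between ZWF1 and SOL3, r was 0.99 over the 6 libraries but 0.54 for the deviations from the strain means.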

How the data were processed

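RNA from 3 cultures of each strain was sequenced as paired reads of 150 nt. The authors cleaned reads with fastp, mapped them with HISAT2 (reference strain GS115) and assigned them to genes with HTSeq-count. For tool versions and strand setting, nothing was given in the sources used here. What the authors deposited is a table of whole-number counts, although it is named as normalized, and its column totals differ, so they were used as counts.

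Genes with a mean of 10 or more reads were kept (5029 of 5040 rows), scaled by TMM and tested with edgeR 4.0.16 (R 4.3.3, quasi-likelihood, prior count 0.125, Benjamini-Hochberg). Genes were called where the adjusted p was under 0.05 and the change exceeded 2-fold. Standard errors come from log2 CPM of the replicates (prior count 2). DESeq2 1.42.0 and limma 3.58.1 were alternatives, with another normalization, no filter, other thresholds, a replicate block and each replicate left out. Ratios within libraries had an exact two-sided permutation test. The fits were tested on simulated data.

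Depth was 10386352 to 12767753 reads per library. No 2 replicates agreed within sampling noise. The cultures were triplicates, and whether they came from separate starter colonies is not given in the sources used here, so p-values measure the spread between these cultures. Named genes were the 5 members, their numbered neighbours and the most alike profile. The members and lists were chosen with earlier results of these data known. Other genes of the pathway were not used here, since 0 of 5040 identifiers matched the reference gene table.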

Additional observations from a re-analysis of the deposited data

How the results depend on the processing

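The lower levels of ZWF1 and SOL3 kept their direction and an adjusted p under 0.05 under every alternative run (log2 fold change -0.81 to -0.63 and -0.97 to -0.82). The log2 fold change of GND1 lay on either side of 0: 0.10 with total-count scaling, -0.0141 with DESeq2 size factors (where the median of all genes moved from 0.02 to 0.0084), -0.0141 with DESeq2, -0.0037 with limma, -0.0037 with the replicate block, -0.037 without scaling of libraries (an alternative chosen after seeing the data), and from -0.0996 to 0.0627 with 1 replicate left out. That of TKL1 turned from -0.093 to 0.014 with total-count scaling, which moved the median of all genes from 0.023 to 0.13, as large a shift. The oxidative share differed by -1.98 to -0.27 percentage points with 1 replicate left out, by 0.26 without ZWF1, by -12.0 without GND1, and by 2.97 with PAS_chr2-2_0337 added to the non-oxidative branch (also chosen after seeing the data). The difference of branch means of log2 reads, which is on another scale than the share, was -0.63 between the strains. It was computed with TAL1-1 only and not with PAS_chr2-2_0337. The log2 ratio of GND1 to TKL1 ran from -0.015 to 0.18 and that of GND1 to TAL1-1 from -0.40 to -0.087 with 1 replicate left out. By the adjusted p alone, 3227 genes and 2 of the members passed, and 166 genes passed a fold change above 4. With total-count scaling 862 genes were called, 522 of them higher, against 825 and 423. Leaving out 1 replicate gave 794 to 886 called genes. Same-numbered replicates did not deviate together (r of -0.134, 0.0533 and 0.114), and the replicate block called 829 genes. The low counts of TAL1-1 limit its precision. Corrections for GC content or gene length were not run.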
